A study of Mus musculus with 27 samples.

Results

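The 7 genes described here, *Agt*, *Agtr1a*, *Agtr2*, *Ace*, *Enpep*, *Mme* and *Atp6ap2*, belong to the renin-angiotensin system, out of 48795 genes listed for each library. They were chosen by their gene family and by measured values of these same libraries: *Agtr2* was among the largest rises from the IM3 progenitors to the Sertoli-like cells (iSLCs), and *Agt* rose as well. All 7 were found by symbol. Their levels in iSLCs and their differences between iSLCs and IM3 are therefore given as a description, without a test.

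The renin-angiotensin system makes small signaling peptides from a single secreted precursor. Renin cuts angiotensinogen (the product of *Agt*) to angiotensin I, angiotensin-converting enzyme (*Ace*) turns this into angiotensin II, and angiotensin II acts through the AT1 receptor (*Agtr1a* and *Agtr1b* in mice) and the AT2 receptor (*Agtr2*). Aminopeptidase A (*Enpep*) trims angiotensin II to angiotensin III, neprilysin (*Mme*) makes angiotensin-(1-7) and degrades several peptides, and *Atp6ap2* encodes the (pro)renin receptor, which is also an accessory part of the vacuolar proton pump. The system is best known for blood pressure and salt balance, but its parts are also found locally in the testis and in developing kidney and mesenchyme, and *Agtr2* is typically a gene of fetal tissue.

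RNA had been sequenced from 9 groups of 3 libraries, all made from 1 XY mouse embryonic stem cell (ESC) clone (strain F1:C57BL/6 x CBA) that carries the TESCO-CFP reporter, a CFP driven by a *Sox9* testis enhancer, and the doxycycline activator rtTA at the R26 locus. ESCs were the start and had been kept with LIF. EpiSCs had spent 60 h with 1% knockout serum replacement, Activin A (20 ng/ml) and bFGF (12 ng/ml), and mesoderm-stage cells (M) then 36 h in bFGF (20 ng/ml), BMP4 (10 ng/ml) and the PI3-kinase inhibitor LY294002 (10 µM). For IM1 to IM5, cells were cultured for a further 3.5 days with BMP4 (20 ng/ml) and bFGF (5 ng/ml) in every medium. IM1 had nothing more, IM3 had retinoic acid (100 nM), IM2 had retinoic acid with Activin A (10 ng/ml), IM4 had retinoic acid with the GSK3 inhibitor CHIR99021 (0.3 µM), and IM5 had all of these. iSLCs were IM3 cells that had taken up doxycycline-inducible lentiviruses for *Nr5a1* and *Dmrt1*, had been moved to a Sertoli medium (EGF, FSH, FGF9, prostaglandin D2, testosterone and Activin A) with doxycycline (2 µg/ml, 4 days), and had been sorted for CFP. Virus, doxycycline, medium, time and sort cannot be told apart in the iSLC libraries. All groups came from 1 clone. The study calls the libraries of a group biological replicates, but the labels do not say whether they came from separate cultures, so p-values measure only the spread between these libraries.

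Total expected counts, the estimated fragments assigned to genes, were 35923040 to 84876603 per library. *Nr5a1* stood at 87.2 to 100.3 TPM (a length-scaled share of all transcripts) in iSLCs and at 0 to 0.15 TPM in the other 24 libraries, and *Dmrt1* at 192 to 228 TPM against 0.34 to 0.65 TPM in IM3, with virus and endogenous transcripts counted together. Of 12 Sertoli cell markers, 8 averaged at least 1 TPM in iSLCs and 6 in IM3, and *Amh*, *Ptgds*, *Gata1* and *Rhox8* did so in neither. *Cldn11* (7.05 against 0.48 TPM in IM3), *Sox8*, *Dhh* and *Aard* were higher in every iSLC library, whereas *Gata4* (161 against 340 TPM), *Wt1*, *Sox9* and *Cst9* were lower. The sum, 315 to 333 TPM in iSLCs and 523 to 565 TPM in IM3, is carried by *Gata4* and *Wt1*. Transcripts of 6 erythroid genes split the libraries: their sum was 3.90 to 27.1 CPM (counts scaled to library size) where cells were ESC, IM3, IM4 or M (12 libraries) and 0.38 to 1.39 CPM in the other 15. The labels name no batch for this split, which most comparisons below cross.

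*Agt*, the only precursor of the pathway (chr8:124556534-124569706, minus strand, GRCm38), stood clear of the counting floor in iSLCs alone. It stood at 4.39, 3.75 and 3.45 TPM in the 3 iSLC libraries (mean 3.86 ± 0.48, SD, n = 3), from 307, 222 and 213 expected counts. Before iSLC it never exceeded 11 counts or 0.18 TPM, both in IM2 replicate 1, and 17 of the 24 libraries held at most 3 counts, the floor taken here for detection. The 3 iSLC libraries lay far above all others, and the other groups lay in a narrow band near the floor. Within it, the TPM of EpiSC and M (0 to 0.02) lay below those of ESC, IM1 and IM5 (0.03 to 0.08). These values came from 0 to 6 counts per library, too few to give an order of the groups. In IM3 *Agt* had 6, 1 and 0 counts. Set against these 7 counts, scaled to library size, the iSLC total was 75.2-fold higher, with a 95% exact counting interval of 36.3 to 188. Of these 7 counts, 6 came from IM3 replicate 1, and the fitted log2 fold change of 6.19 became 8.05 without that library. The mean normalized read count of *Agt* over all 27 libraries was 27.4, under the minimum of 100 set for calling a gene differentially expressed (DE).

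*Agtr2*, the AT2 receptor gene on the X chromosome (chrX:21484544-21489164, plus strand), showed the widest gap of the 7 genes. The iSLC libraries held 21.5, 22.9 and 26.7 TPM (mean 23.7 ± 2.66), from 2735, 2468 and 2991 counts. None of the other 24 libraries held more than 3 counts, and 12 of them held 0, among them all 6 libraries of ESC and IM4. In IM3 the counts were 0, 1 and 0. With 8194 counts in iSLC against this single one, the ratio was 5813 and its 95% exact counting interval 1043 to 229630, so its size is barely fixed by IM3, and without IM3 replicate 2 no count is left there. The only TPM above 0.03 before iSLC, 0.37 in EpiSC replicate 2, came from 2 counts for which the authors' program took an effective length of 130 bases, whereas in the iSLC libraries that length was 3088 to 3091 bases.

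*Agtr1a*, the main AT1 receptor gene (chr13:30336441-30382867, plus strand), stood at 15.7, 16.1 and 19.2 TPM in iSLCs (mean 17.0 ± 1.88), from 1293, 1104 and 1374 counts. Unlike *Agtr2* it was seen in every earlier library, with 3 to 30 counts and 0.09 to 0.41 TPM. No 2 neighbours in the order of the earlier groups were separated: the means ran from 0.30 TPM in M to 0.13 TPM in EpiSC, and the libraries overlapped at each step. In IM3 it had 11, 3 and 16 counts, and the iSLC total was 89.2-fold higher (95% exact counting interval 62.4 to 132). The fitted log2 fold change was 6.47, and 7.06 without IM3 replicate 3, which held the most of these counts. In the 9 comparisons that leave iSLCs out, neither *Agt*, *Agtr1a* nor *Agtr2* met the count minimum, so none of them could be called. Within iSLCs, per length, both receptor genes lay above their ligand's precursor in each library, *Agtr2* by 4.90 to 7.73 times and *Agtr1a* by 3.59 to 5.56 times in TPM.

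**Figure D1:**
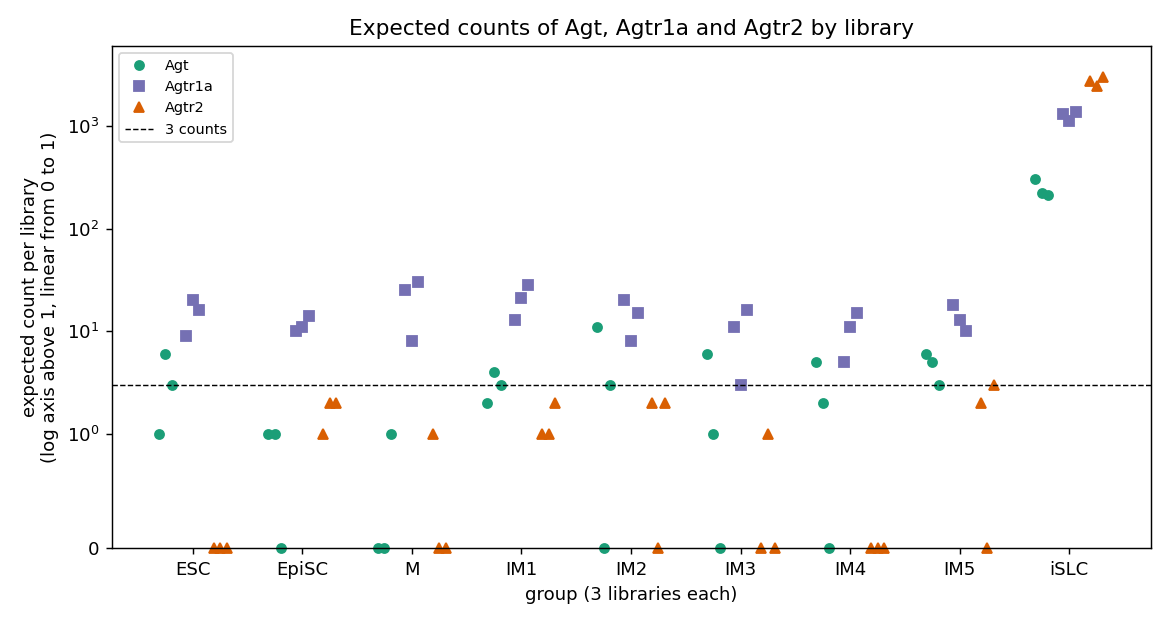
Expected counts (vertical axis, logarithmic above 1 and linear from 0 to 1) of Agt, Agtr1a and Agtr2 in the 3 libraries of each of the 9 groups, with a dashed line at 3 counts. Agtr2 is at or under 3 counts in all 24 libraries before iSLC, Agtr1a lies between 3 and 30, and all 3 genes lie above 200 in iSLC.

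The part of the promoter windows that lies before every annotated first exon is printed for the 4 members that had a RefSeq window (GRCm38.p6) and stood highest in iSLCs, since these genes were higher together in the cells given both virus-encoded factors. Each run reads 5′ to 3′ on the gene's strand, and capitals mark the letters TATAAA or, on the other strand, TTTATA.
Agt chr8:124569707-124569956 (minus strand): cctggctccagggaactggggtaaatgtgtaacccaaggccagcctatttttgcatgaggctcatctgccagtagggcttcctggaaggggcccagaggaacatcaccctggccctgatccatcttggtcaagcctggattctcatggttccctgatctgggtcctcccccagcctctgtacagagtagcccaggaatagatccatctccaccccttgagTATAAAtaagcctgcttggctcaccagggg
Agtr2 chrX:21484374-21484543 (plus strand): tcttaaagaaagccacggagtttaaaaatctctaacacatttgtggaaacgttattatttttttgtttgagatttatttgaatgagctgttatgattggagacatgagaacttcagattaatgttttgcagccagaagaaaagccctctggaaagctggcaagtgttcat
Ace chr11:105967698-105967944 (plus strand): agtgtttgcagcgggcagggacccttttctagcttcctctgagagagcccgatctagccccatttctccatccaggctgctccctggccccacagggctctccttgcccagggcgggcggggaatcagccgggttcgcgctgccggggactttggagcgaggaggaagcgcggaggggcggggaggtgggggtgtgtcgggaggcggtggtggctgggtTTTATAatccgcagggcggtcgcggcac
Enpep chr3:129332750-129332999 (minus strand): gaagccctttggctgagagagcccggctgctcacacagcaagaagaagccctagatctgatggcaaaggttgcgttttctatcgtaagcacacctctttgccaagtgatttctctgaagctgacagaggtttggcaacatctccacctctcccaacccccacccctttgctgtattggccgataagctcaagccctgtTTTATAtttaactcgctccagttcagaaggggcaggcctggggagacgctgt

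Windows of 300 bases, from 250 before to 50 after a RefSeq start, were searched on both strands for CAAGGTCA, which NR5A1 binds, and for ACAATGT, a core of DMRT1 sites. Neither motif occurred in any of the 9 windows of the 6 members with an entry. CAAGGTCA was found in 1.56% and ACAATGT in 2.96% of all 32851 windows. At such low shares, 9 windows are too few to show a difference. The shorter half-site AGGTCA, which is contained in CAAGGTCA and was added after the data were seen, occurred in 16.3% of all windows and once among the members, 44 bases before the second *Ace* start. TATAAA, likewise added, was found in 13.6% of all windows. It lay 24 bases before the *Agt* start, and on the other strand 25 bases before the first *Ace* start and 46 bases before the *Enpep* start. Another match on that strand spanned the *Enpep* start itself, beyond the printed run. These letters are a description of short windows, and binding was not measured here.

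*Ace* (chr11:105967945-105989964, plus strand) varied at every stage. In iSLCs it stood at 2.63, 2.61 and 2.02 TPM (mean 2.42 ± 0.35), above all other libraries. IM2 followed at 1.70, 1.49 and 1.55 TPM, barely above ESC at 1.40, 1.22 and 1.48 TPM. These groups overlapped in FPKM (0.88 to 0.99 in IM2 and 0.83 to 0.96 in ESC), and their mean normalized read counts, 204 in IM2 and 221 in ESC, had the opposite order and overlapped. The effective length of *Ace* was 2855 bases in IM2 replicate 1 and 4041 and 4349 bases in the others. ESC overlapped IM1 (0.84, 1.29 and 1.17 TPM), and IM1 overlapped IM5 (0.89, 0.76 and 0.78 TPM). IM3 (0.48, 0.31 and 0.28 TPM), IM4 (0.45, 0.27 and 0.22 TPM) and EpiSC (0.28, 0.21 and 0.32 TPM) formed a lower, overlapping set. M was lowest, at 0.09, 0.10 and 0.05 TPM, and overlapped no other group.

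*Ace* fell from ESC to EpiSC by 2.21 ± 0.21 on the log2 scale (SE, edgeR quasi-likelihood, adjusted p = 1.12e-09) and was the only member called there, beside 8.07% of all 20839 genes tested. From EpiSC to M no member was called, beside 14.5% of all genes (edgeR; 3 of 7 members had an unadjusted p under 0.05, and DESeq2 called 0). Only 2 of the 7 members met the count minimum in this comparison and could be called. *Ace* lay lower by a log2 fold change of -2.01 ± 0.31 (edgeR, adjusted p = 2.11e-06). It missed the count minimum, with a mean of 47.6 normalized reads in EpiSC and 11.9 in M. From M to IM1 *Ace* rose by 3.83 ± 0.27 (adjusted p = 1.16e-12). In IM3 against M its difference was 2.16 ± 0.32 (adjusted p = 9.85e-07), again below the count minimum.

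Among the IM media, *Ace* was low where retinoic acid acted without Activin A and higher in the others. It was lower in IM3 than in IM1 by a log2 fold change of -1.67 ± 0.22 (edgeR, adjusted p = 3.16e-07), where it was 1 of the 7 members called beside 6.34% of all genes. With Activin A it rose, by 1.94 ± 0.22 in IM2 against IM3 (adjusted p = 5.28e-08) and by 1.49 ± 0.22 in IM5 against IM4 (adjusted p = 4.03e-06). These comparisons called 1 and 2 members, beside 3.8% and 4.09% of all genes. The other member called in IM5 against IM4 was *Enpep*, which met the count minimum over all libraries only with iSLCs counted. Several of the comparisons among the IM media share the IM3 libraries with each other and with the iSLC comparison. Their values are therefore given side by side only.

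With CHIR99021, *Ace* had a log2 fold change of -0.27 ± 0.25 in IM4 against IM3 (edgeR, adjusted p = 0.746), with overlapping libraries. With Activin A present, *Ace* was lower in IM5 than in IM2 by -0.71 ± 0.19 (adjusted p = 0.0175), which passed neither threshold. Each of these comparisons called 0 members, beside 0.101% and 0.235% of all genes, and only 3 of the 7 met the count minimum in each. In each, 2 members had an unadjusted p under 0.05 (edgeR), and DESeq2 called 0.

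The comparisons of *Ace* between IM1, IM2 or IM5 and IM3 or IM4 cross the erythroid split, and the higher *Ace* lay on the side with fewer erythroid transcripts. M against EpiSC (log2 fold change -2.01, below the count minimum) and IM1 against M (3.83) also cross it, with *Ace* higher on that side. From ESC to EpiSC, which crosses it too, *Ace* was higher on the other side. Every call of *Ace* crosses the split, and the part of the split in the *Ace* values was not tested. Endothelial cells are a known source of *Ace*. Summed over 6 endothelial markers, the TPM was 143 to 156 in IM1, 91.1 to 95.8 in IM2, 80.1 to 85.1 in IM5, 72.2 to 83.2 in IM3, 75.8 to 88.4 in IM4 and 27.5 to 30.1 in iSLCs. The part of such cells in the *Ace* values was not tested, and in iSLCs, where *Ace* was highest, 4 of the 6 markers averaged under 1 TPM, while *Emcn* was higher than in IM3 (at least 23.9 against at most 2.68 TPM) and made most of the sum. In bulk RNA, fewer cells of a type and less RNA per cell cannot be told apart. *Ace* has 2 RefSeq starts, an upstream one for the somatic form and one inside the gene for the germ cell form, and values per gene do not separate them. Its exons overlap *Gm11651* on the opposite strand over 5.58% of their length, and whether counting used strand was not stated.

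*Enpep*, aminopeptidase A (chr3:129269175-129332720, minus strand), was first seen above a trace in the IM stage. ESC, EpiSC and M held 0.03 to 0.10 TPM from 2 to 8 counts and overlapped. IM4 (1.09, 1.18 and 1.40 TPM), IM3 (1.17, 1.04 and 1.05 TPM) and IM1 (0.97, 1.10 and 1.07 TPM) overlapped with each other. They lay above IM2 (0.51, 0.56 and 0.60 TPM) and IM5 (0.53, 0.55 and 0.46 TPM), the media with Activin A. iSLCs stood apart at 6.21, 6.47 and 6.35 TPM (mean 6.34 ± 0.13), from 972, 850 and 850 counts.

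*Enpep* rose by 4.48 ± 0.20 from M to IM1 (log2, edgeR, adjusted p = 1.16e-16) and by 4.42 ± 0.21 from M to IM3 (adjusted p = 2.81e-16). With *Ace* it made 2 of 7 members called in IM1 against M, beside 15.7% of all genes, and it was the 1 member called in IM3 against M, beside 14.9%. The calls of *Enpep*, here and in IM5 against IM4, met the minimum over all 27 libraries only with iSLCs counted. Its mean of 159 normalized reads over these libraries includes 820 in iSLCs, whereas no earlier group averaged above 168. IM3 against M lies within 1 side of the erythroid split. IM1 against M, IM3 against IM1, IM2 against IM3 and IM5 against IM4 cross it. With retinoic acid alone, in IM3 against IM1, the log2 fold change of *Enpep* was -0.06 ± 0.13 (adjusted p = 0.738), with overlapping libraries. With Activin A it fell by 1.19 ± 0.13 in IM5 against IM4 (adjusted p = 4.25e-08). In IM2 against IM3 its log2 fold change was -0.92 ± 0.14 (adjusted p = 5.78e-06), short of the 2-fold minimum. In both pairs *Enpep* lay lower and *Ace* higher with Activin A. *Enpep* lay at 0.30 ± 0.13 in IM4 against IM3 (adjusted p = 0.33) and at 0.02 ± 0.14 in IM5 against IM2 (adjusted p = 0.958).

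*Enpep* is also known from pericytes. The 6 markers of smooth muscle and pericytes summed to 2595 to 2815 TPM in IM1, 1396 to 1682 in IM3, 2538 to 2611 in IM2, 1192 to 1485 in IM4, 2060 to 2410 in IM5 and 2784 to 2871 in iSLCs. In IM3, *Acta2* (868 TPM) and *Tagln* (549 TPM) made most of the sum. The part of such cells in the *Enpep* values was not tested.

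*Mme*, which encodes neprilysin (chr3:63241537-63386030, plus strand), was present in every group and was not called in any comparison tested. ESC (11.1, 11.0 and 11.9 TPM) and IM2 (11.1, 9.31 and 10.3 TPM) overlapped at the top. IM3 followed at 8.19, 7.58 and 7.82 TPM, separated from IM2 above and M below. M, EpiSC, IM4, IM5, iSLC and IM1 then followed, from a mean of 6.74 ± 0.96 TPM in M to 4.99 ± 0.04 TPM in IM1, each overlapping the next. The iSLC libraries held 5.31, 4.85 and 5.65 TPM.

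Several differences of *Mme* passed the p threshold but stayed under 2-fold. EpiSC was 1.99-fold below ESC (edgeR, log2 fold change -0.99 ± 0.09, adjusted p = 1.52e-10), just short of it, and 3 of 14 alternative settings put it past. Removing EpiSC replicate 3 was one of them, with -1.03 (adjusted p = 2.04e-09). IM5 lay 1.75-fold below IM2 (adjusted p = 5.2e-07), IM3 1.69-fold above IM1 (adjusted p = 4.18e-08) and IM1 1.54-fold below M (adjusted p = 4.39e-07).

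*Atp6ap2*, the (pro)renin receptor gene (chrX:12587801-12617049, plus strand), was the most abundant and the flattest of the 7. It lay between 39.6 and 52.5 TPM in all 24 libraries before iSLC, and at 41.9, 43.6 and 41.8 TPM in iSLCs. Group means ran from 50.8 ± 1.56 TPM in IM3 to 40.8 ± 0.84 TPM in EpiSC. Only the last step of that order, from iSLC to EpiSC, separated the libraries, and it held in TPM alone. In FPKM iSLC lay below EpiSC (23.2 to 24.2 against 27.1 to 28.5). The same was true of normalized reads (3039 to 3162 against 3480 to 3617). Its largest tested difference was 1.18-fold, lower in EpiSC than in ESC (edgeR, log2 fold change -0.23 ± 0.05, adjusted p = 1.06e-04).

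**Figure D2:**
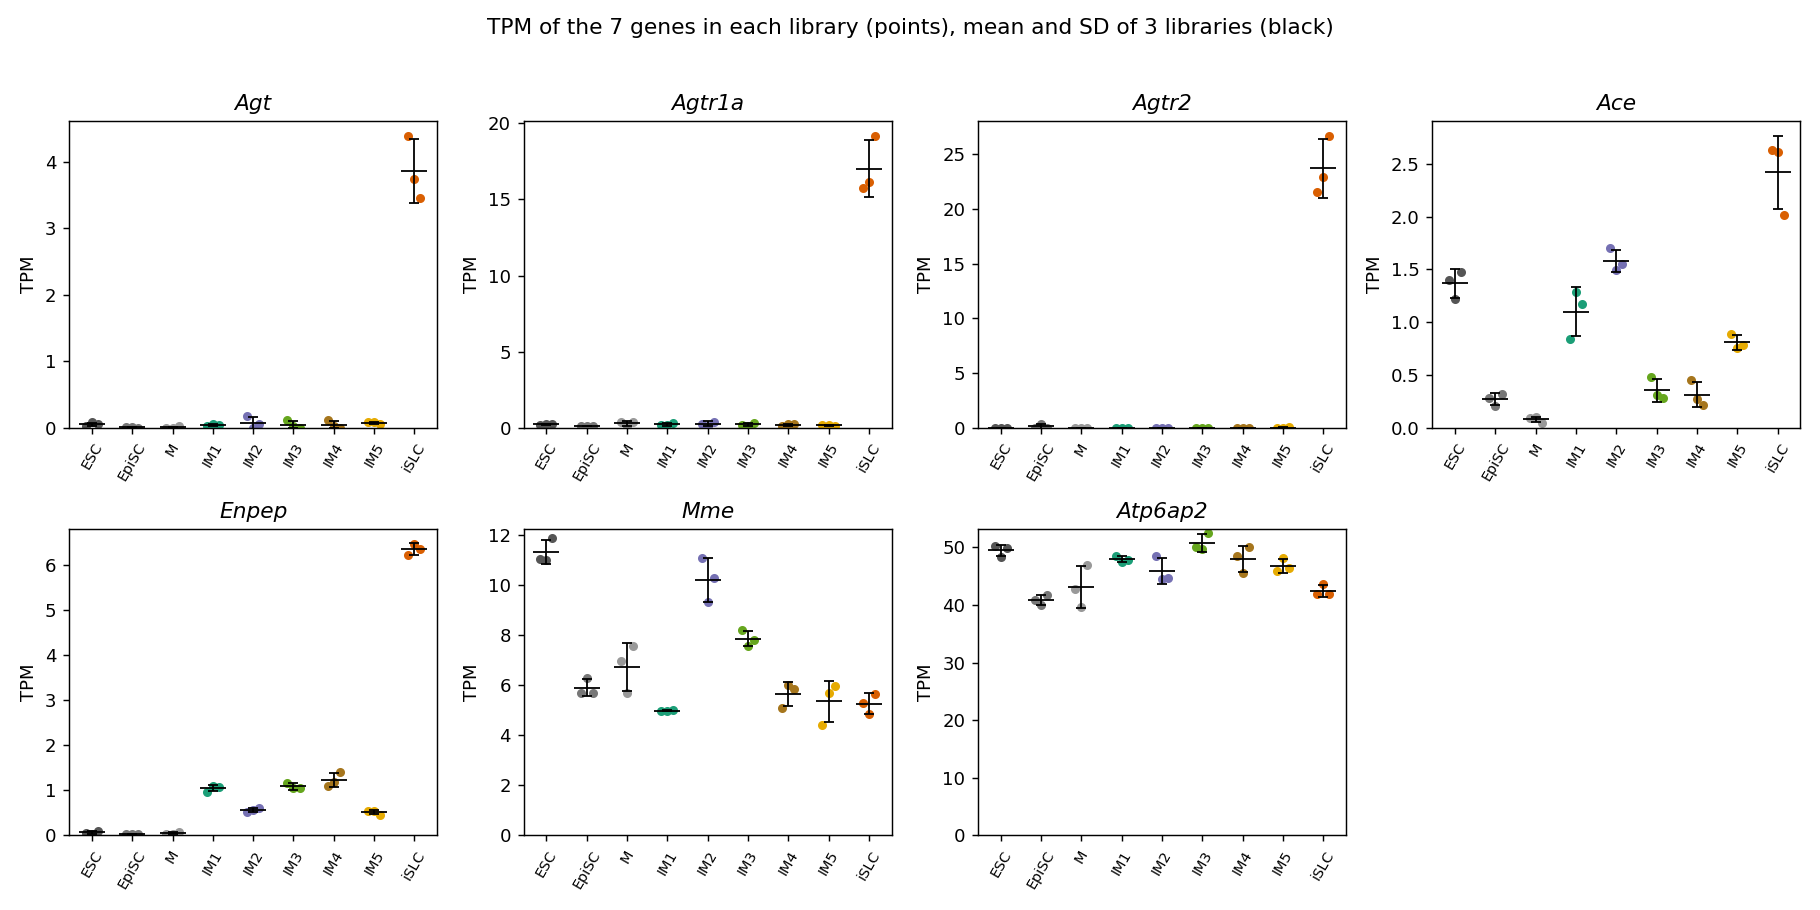
TPM (vertical axes, each starting at 0) of the 7 genes in the 3 libraries of each group (coloured points), with mean and SD in black. Agt, Agtr1a and Agtr2 stand out in iSLC only, Ace and Enpep also vary among the IM media, and Atp6ap2 stays between 39.6 and 52.5 TPM before iSLC.

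**Figure D3:**
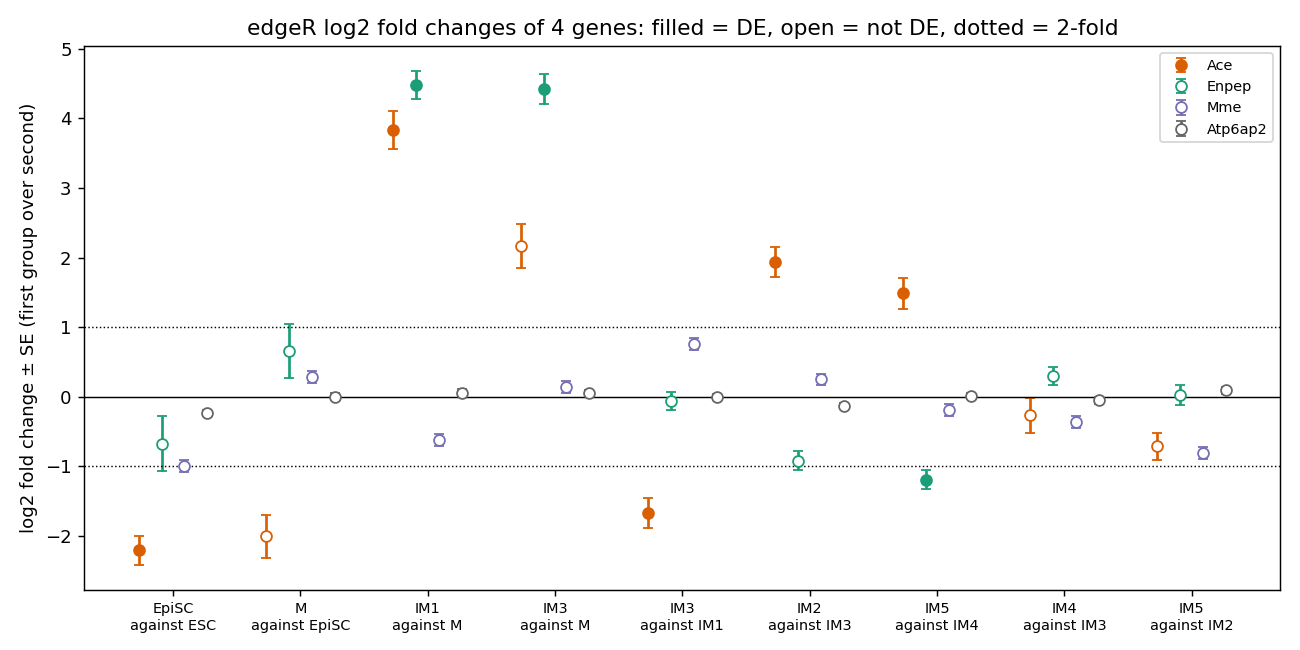
edgeR log2 fold changes with SE (vertical axis) of Ace, Enpep, Mme and Atp6ap2 in the 9 comparisons that the choice of genes did not use. Filled points are DE, open points are not, and dotted lines mark 2-fold. Ace is called 5 times and Enpep 3 times, while Mme and Atp6ap2 are never called. Enpep met the count minimum over all libraries only with iSLC counted.

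The effects of Activin A with and without CHIR99021 were compared as an interaction, (IM5 - IM2) - (IM4 - IM3), and no member was called, beside 0.0336% of all genes (edgeR; 2 of 7 members had an unadjusted p under 0.05, and DESeq2 called 0). Of the 7 members, 4 met the count minimum here. Their edgeR estimates on the log2 scale were -0.45 ± 0.31 for *Ace* (adjusted p = 0.64) and -0.27 ± 0.19 for *Enpep* (adjusted p = 0.637). Those of the other members that met it were -0.44 ± 0.12 for *Mme* (adjusted p = 0.105) and 0.15 ± 0.07 for *Atp6ap2* (adjusted p = 0.435). With Activin A, *Enpep* thus passed the 2-fold minimum in the presence of CHIR99021 and not without it, but the difference between the pairs was not shown. Its call in IM5 against IM4 met the count minimum over all 27 libraries only with iSLCs counted.

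Between iSLC and IM3, the contrast on which the genes were selected, 19.2% of all genes were DE, and the members are described without a call. By summed counts scaled to library size, *Ace* was 6.36 times (95% exact counting interval 5.28 to 7.70) and *Enpep* 5.94 times (5.29 to 6.70) as high in iSLC as in IM3. *Mme* was at 0.62 times (0.59 to 0.65) and *Atp6ap2* at 0.84 times (0.81 to 0.86). The intervals cover counting error only. Steroidogenic cells of testis and adrenal also use this system, and the 5 markers of such cells summed to 70.6 to 91.1 TPM in iSLC against 10.3 to 13.0 in IM3, with *Cyp17a1* under 1 TPM in iSLC. Of the 6 endothelial markers all but *Emcn* were lower in iSLC than in IM3, and of the 6 smooth muscle and pericyte markers all but *Rgs5* (7.16 against 26.4 TPM) were higher. The part of these cells in the member levels was not tested.

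Of the 26 other genes of the pathway, 22 were tested. *Ren1*, renin, was higher in IM3 and IM4 than in iSLCs: 1.10, 1.10 and 1.19 TPM in IM3 and 1.51, 1.31 and 1.02 TPM in IM4, against 0.21, 0.23 and 0.30 TPM in iSLC. The iSLC libraries overlapped those of IM1 (0.23, 0.13 and 0.10 TPM) and IM2 (0.18, 0.30 and 0.41 TPM). *Ren1* was listed at 0 in all 3 M libraries, and no library held more than 68 counts. *Mas1*, the receptor for angiotensin-(1-7), was at 3.71, 3.34 and 3.19 TPM in iSLC and at 0.11 to 1.09 TPM before, highest in EpiSC. *Agtr1b*, the second AT1 receptor gene, never passed 0.31 TPM. The aldosterone synthase gene *Cyp11b2* had no count in any library.

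**Figure D4:**
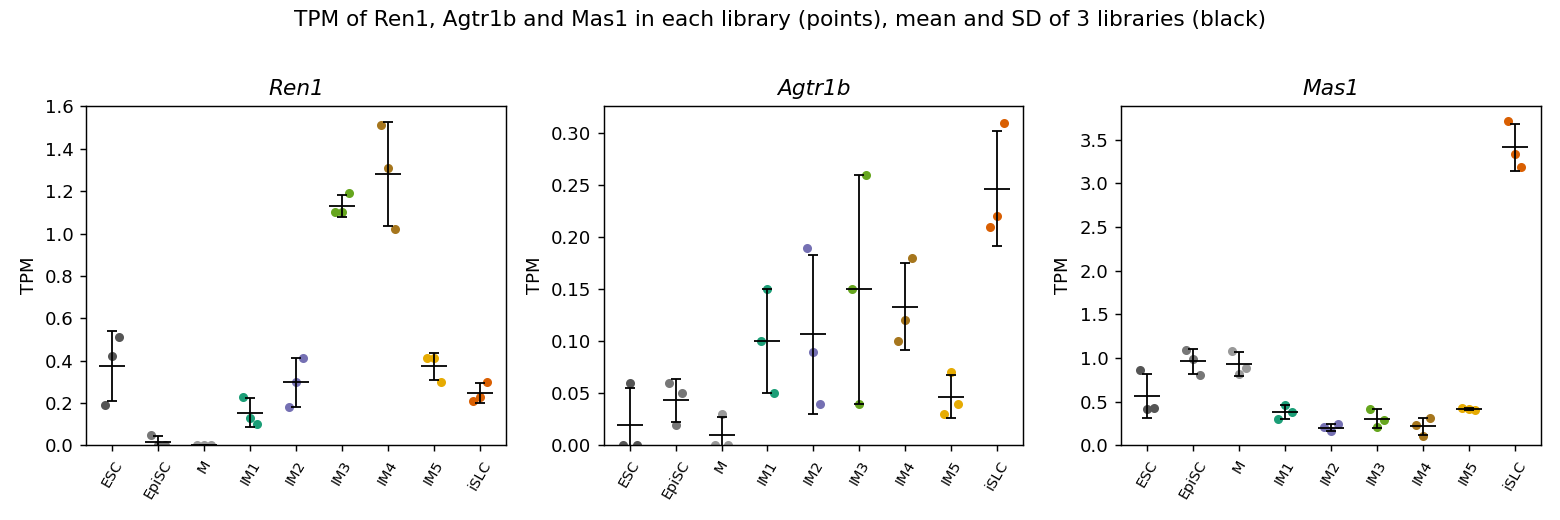
TPM (vertical axes, each starting at 0) of Ren1, Agtr1b and Mas1 in the 3 libraries of each group (coloured points), with mean and SD in black. Ren1 is highest in IM3 and IM4, whereas Mas1 is highest in iSLC, and Agtr1b stays at or under 0.31 TPM.

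In each comparison, 15 of these 22 genes met the count minimum and could be called. From ESC to EpiSC, 1 of 22 was called, beside 8.07% of all genes. This was *Agtrap*, whose product binds the AT1 receptor and promotes its uptake (lower by a log2 fold change of -1.11 ± 0.05, edgeR, adjusted p = 1.21e-15). The median over the 22 genes was -0.40 against 0.00 over all genes. From EpiSC to M, 2 were called, beside 14.5% of all genes. *Anpep*, aminopeptidase N, which trims angiotensin III, rose by 2.01 ± 0.09 (adjusted p = 1.54e-16), and *Mtus1*, which encodes a partner of the AT2 receptor, fell by 1.78 ± 0.08 (adjusted p = 2.86e-17). IM1 against M called 3 higher and 1 lower, beside 15.7% of all genes (median 0.51 against 0.00). The largest was *Hsd11b2*, which protects the mineralocorticoid receptor from glucocorticoids, at 3.15 ± 0.09 (adjusted p = 1.69e-20). IM3 against M called 3 higher and 2 lower, beside 14.9% of all genes (median 0.18 against 0), with *Hsd11b2* again the largest, at 2.87 ± 0.09 (adjusted p = 1.17e-19).

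Of all genes, 6.34% were called in IM3 against IM1, 3.8% in IM2 against IM3 and 4.09% in IM5 against IM4. Among the IM media *Anpep* was the 1 pathway gene called. It was lower in IM3 than in IM1 (-1.03 ± 0.09, edgeR, adjusted p = 1.42e-10), higher in IM2 than in IM3 (1.02 ± 0.09, adjusted p = 4.34e-10) and higher in IM5 than in IM4 (1.36 ± 0.09, adjusted p = 1.16e-12). The second of these was only just over 2-fold and was not called by DESeq2. In these 3 comparisons, which cross the erythroid split, *Ace* differed in the same direction. With CHIR99021 the estimates had opposite signs: *Anpep* lay at 0.65 ± 0.08 in IM5 against IM2 (adjusted p = 7.2e-06, under 2-fold) and at 0.31 ± 0.09 in IM4 against IM3 (adjusted p = 0.0669), where those of *Ace* were negative. IM4 against IM3, IM5 against IM2 and the interaction called 0 pathway genes in edgeR and in DESeq2, with 5, 10 and 5 at an unadjusted p under 0.05. Between iSLC and IM3, described without a call, the widest differences among the 15 pathway genes that met the count minimum were those of *Hsd11b2*, at 42.5 ± 0.94 TPM in IM3 and 1.52 ± 0.09 TPM in iSLC, *Agtrap*, at 4.67 ± 0.28 and 24.0 ± 1.60 TPM, and *Prep*, a prolyl peptidase, at 100.6 ± 0.80 and 37.3 ± 0.82 TPM.

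The genes whose log2 CPM were most like those of *Agtr2* over the 27 libraries, among 13476 genes with enough reads, were *Ddost* (Pearson r = 0.98), *Ppt1* (0.98), *Pbxip1* (0.97), *Arhgap20* (0.96) and *Atp13a2* (0.96). For *Agt*, among 13477 genes, they were *Pbxip1* (0.93), *Camta2* (0.92), *Ankrd24* (0.92), *Gmeb1* (0.92) and *Inha* (0.92). These points are largely iSLC against the rest, and the r values are a description. Over the 24 earlier libraries, where *Agtr2* held at most 3 counts, the first 5 gave 0.25 to 0.50, and the 5 for *Agt* gave 0.48 to 0.56. Of these genes *Arhgap20* was the lowest before iSLC, with at most 94.0 normalized reads in any earlier library and 2318 on average in iSLC, whereas *Ddost* went from at most 7438 to 16293.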

How the data were processed

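Bulk RNA-seq (TruSeq V2 libraries, paired reads on an Illumina HiSeq) covered 9 groups of 3 libraries, grouped by the labels. The authors trimmed reads with cutadapt 1.9.1, aligned them to GRCm38 with STAR 2.5.2a and estimated abundance with RSEM 1.3.0, and did not pool replicates. The expected counts they deposited are not normalized between libraries. The TPM values the authors deposited are scaled for effective length to a fixed sum per library, and were used for levels. The FPKM values the authors deposited served as an alternative. RSEM shares out reads that fit several genes by a model.

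Expected counts were rounded, filterByExpr of edgeR 4.0.16 (R 4.3.3) kept 20839 genes, and glmQLFit and glmQLFTest were run after TMM in 1 model of all 27 libraries. The pairs of groups were chosen for this report. The thresholds are the study's, but edgeR without effective lengths replaced its DESeq2 test with lengths; DESeq2 1.42.0 with lengths, and edgeR with a length offset, were alternatives. To be DE a gene needed an adjusted p up to 0.01 (Benjamini-Hochberg, all genes), a change of 2-fold or more, and 100 or more normalized reads on average, both across the 27 libraries and in 1 of the compared groups. Ratios of counts carry exact 95% intervals. Names and positions came from GENCODE M21 (GRCm38), and names matched 48349 of 48795 genes. The 5 genes most like *Agtr2* or *Agt* were ranked by Pearson r of log2 CPM (prior count 1). Named were all members, at most 3 DE pathway genes a comparison, *Ren1*, *Agtr1b* and *Mas1*, and the genes of most similar pattern. Some named items are not reported here. *Cyp11b2* was named after its values were seen. The members and lists were chosen with earlier results of these data known. The steps were tested on simulated data. Single-cell, human and in vivo data of the study were not analysed here.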

Additional observations from a re-analysis of the deposited data

How the results depend on the processing

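The alternatives counted below include refits of iSLC against IM3, on which the genes were chosen, and those refits are a description only. Over 11 comparisons and 160 alternatives, the number of members called stayed within 1.5 times of the reported one in 152. From ESC to EpiSC it was 2 in place of 1 with the size factors of DESeq2 and with the GC content offset, and 1 to 2 with each library left out, where *Mme* passed the 2-fold minimum. With no count minimum it was 1 in M against EpiSC (*Ace*) and 2 in IM3 against M. In a fit of only the groups compared it was 0 in IM1 against M, 0 in IM3 against M and 1 in IM5 against IM4, where the mean over the 6 libraries alone fell under 100 reads while p and fold stayed past their thresholds. Of 500 refitted log2 fold changes of members, 1 reversed: *Atp6ap2* in IM2 against IM3 was 0.0060 with the GC content offset (adjusted p = 0.949, edgeR). This offset was tried because the GC trend, high against low quartile of GC content, was -0.42 to 0.07 log2 units in ESC, M, IM3 and IM4 and -0.11 to 0.43 in the other groups; *Ace* and *Enpep* kept every call under it. The genome-wide counts grew without the count minimum, from 1682 to 3826 (EpiSC against ESC), 3023 to 5842 (M against EpiSC), 3262 to 5818 (IM1 against M), 3108 to 5402 (IM3 against M), 1321 to 2497 (IM3 against IM1), 792 to 1509 (IM2 against IM3), 852 to 1667 (IM5 against IM4), 21 to 36 (IM4 against IM3), 49 to 101 (IM5 against IM2) and 4011 to 7015 (iSLC against IM3). The 21 genes of IM4 against IM3 were 12 in a fit of those groups alone and 12 without IM3 replicate 1, and the 7 of the interaction ranged from 2 to 13. In FPKM, iSLCs ranked 9 in place of 8 among the groups for *Atp6ap2* and *Mme*. On the gene strand alone, CAAGGTCA was in 0.892% and ACAATGT in 1.52% of promoters.

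The labels do not say whether equal replicate numbers mark a shared experiment. Deviations of same-numbered libraries from their group means correlated by 0.0017 on average. With the replicate block, the counts of members called were 1, 0, 2, 1, 1, 1, 2, 0, 0 and 0, each as without it. They follow the order of the comparisons above, with the interaction last. The comparison of iSLC against IM3 is left out, since the genes were chosen there. Of the 27 libraries, 11 correlated best with those of their own number. What depth limits is *Agt* and *Agtr2* before iSLC, whose few counts give no order of the earlier groups.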
